A study of Mus musculus with 11 samples.

Results

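Interferon response genes were followed as a module of 39 genes, chosen by symbol as known members of the mouse interferon response. The choice was made with earlier results of these data known. Of these, 37 were found among the 16894 genes of the table by their Entrez identifiers. Mx1 and Mx2 were not analysed here. RNA had been sequenced from mouse brain microglia in 11 libraries, to ask how far transplanted cells take on the programme of microglia that live in the brain. All 3 groups carried the Cx3cr1-GFP genotype, a fluorescent reporter in the gene of the fractalkine receptor, which microglia express. The groups were cultured primary microglia (3 libraries), resident microglia isolated by fluorescence-activated cell sorting (4 libraries), and transplanted microglia sorted 3 months after transplantation (4 libraries). PLX3397 blocks Csf1r, a growth factor receptor that microglia need to survive. Depletion by 3 cycles of chow with 600 mg/kg PLX3397 is attached to all 11 libraries, which leaves unsaid if resident cells came from treated mice. The source of the transplanted cells, the age of the mice and any pooling of animals were not given in the sources used here. Nor do the labels say that replicates came from separate animals or cultures, so p-values reflect only how these libraries vary, a spread that may be technical.

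Interferons are secreted proteins that warn cells of infection. Type I interferons bind a receptor made of Ifnar1 and Ifnar2, whose kinases phosphorylate STAT proteins. Stat2 and Irf9 are subunits of the complex ISGF3, which binds the interferon-stimulated response element (ISRE) in the promoters of its target genes. Interferon gamma acts through Ifngr1 and Ifngr2 and on another promoter element, GAS. The products of the target genes sense nucleic acids, degrade viral RNA, block virus entry and feed back on the pathway itself, and in the brain microglia are among the cells that switch these genes on.

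The element that names the pathway was looked for in the promoters of the module. RefSeq promoter windows of build GRCm38.p6, from 250 bases before to 50 bases after a transcription start, were available for 29 of the 37 genes. The ISRE core was searched as GAAA, any 2 bases and GAAA again, and on the other strand as TTTC, any 2 bases and TTTC. It was found in at least 1 window of 18 of the 29 genes (62.1%), against 3.99% of the 27025 genes that have a window, and in 3.44% of all 32851 windows. The GAS letters TTCNNNGAA, which read the same on both strands, were found in 7 of the 29 (24.1%), against 9.55% of all genes. A match describes letters in a window and shows no binding. The stretches below are from the IFIT, OAS and signalling members whose core lies before the start. Ifitm2 was added after its values were seen, because its level differed most between cultured and resident cells. They run 5′ to 3′ along the gene, in lower case, with the ISRE core in capitals.

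Ifit1: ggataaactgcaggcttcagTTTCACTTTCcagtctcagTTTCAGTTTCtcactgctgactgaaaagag
Ifit3: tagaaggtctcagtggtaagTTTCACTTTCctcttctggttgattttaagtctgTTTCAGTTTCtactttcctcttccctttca
Oas1a: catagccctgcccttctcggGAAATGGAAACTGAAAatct
Oas3: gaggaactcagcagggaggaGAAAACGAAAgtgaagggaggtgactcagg
Stat2: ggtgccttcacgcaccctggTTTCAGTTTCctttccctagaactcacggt
Ifitm2: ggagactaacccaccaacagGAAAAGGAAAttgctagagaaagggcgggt

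The stretches lie at chr19:34640765-34640833, plus strand (Ifit1), chr19:34583353-34583436, plus strand (Ifit3), chr5:120907526-120907565, minus strand (Oas1a), chr5:120777705-120777754, minus strand (Oas3), chr10:128270256-128270305, plus strand (Stat2) and chr7:140955978-140956027, minus strand (Ifitm2). Ifit1 and Ifit3 each held 2 separate cores, and Oas1a held 2 that overlap. The core nearest the start ended 75 bases before it in Ifit1, 112 in Ifit3, 4 in Oas1a, 65 in Oas3, 212 in Stat2 and 36 in Ifitm2. Irf1, which answers to interferon gamma, held a GAS match and no ISRE core in its windows.

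Library totals were 26705034 to 28219696 expected counts for cultured, 19055655 to 19965631 for resident and 18692721 to 19761208 for transplanted cells. Levels are counts scaled to a common library total with TMM factors (CPM), and the authors' TPM values, which are per length, where genes are compared with each other. At these depths 3 counts correspond to 0.136 to 0.146 CPM. The 10 microglial marker genes summed to 52832 to 59311 CPM in resident and 45381 to 55771 CPM in transplanted libraries, but to 3611 to 6093 CPM in cultured libraries, where Tmem119 stood at 11.8 CPM against 6104 in resident cells. The label microglia thus rests on far lower marker levels in the cultured group. In bulk RNA, fewer cells of a type and less RNA per cell cannot be told apart.

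Resident replicate 4 stood apart from the other resident libraries in this module. It was the highest of the 4 resident libraries at 28 of the 37 genes (75.7%), where over 12646 expressed genes it was the highest at 23.8%. On log2(CPM + 0.5), it stood more than 2-fold above the mean of the other resident libraries at 16 members, against 0.498% of all expressed genes. The median TPM of the module was 17.7 in it, against 11.7, 12.7 and 11.4 in resident replicates 1 to 3, and 17.8, 21.2, 29.9 and 22.6 in the transplanted libraries. At 26 members it reached at least the lowest transplanted library, where replicates 1, 2 and 3 did so at 7, 7 and 3 members. The share of all expressed genes that did so was not counted, so these numbers only set the resident libraries beside each other. As a plain ratio of CPM, the rise was uneven across members. Ifi44, a scarce member, was 9.16-fold above the mean of the other resident libraries, Oas3 8.48-fold, Cxcl10 5.32-fold, Oasl1 5.13-fold and Oas2 4.25-fold, whereas Stat2 was 1.02-fold, Irf1 0.969-fold, Gbp7 0.979-fold and Ifitm2 0.576-fold.

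Other measures moved with that library. It held 8 counts of Ifnb1, which encodes interferon beta, 4 of Ifna4, 1 of Ifna6 and 1 of Ifng, while the other 10 libraries held 0 counts of these genes except 2 of Ifnb1 in transplanted replicate 3. Its 4 measured Y-linked genes summed to 21.4 CPM, against 209 to 241 CPM in the other resident libraries, and Ddx3y, Kdm5d and Eif2s3y were at 0.137, 0 and 0 CPM. Transplanted replicates 1 and 2 summed to 106 and 86.9 CPM, against 248 and 256 CPM in replicates 3 and 4. Whether the sex of the donors played a part in the interferon values was not tested. The count of called members and the members whose call or value turns on resident replicate 4 are given below with and without it. Among the transplanted libraries, replicate 1 was the lowest at 27 of the 37 genes (73%), against 22.9% of expressed genes.

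**Figure D1:**
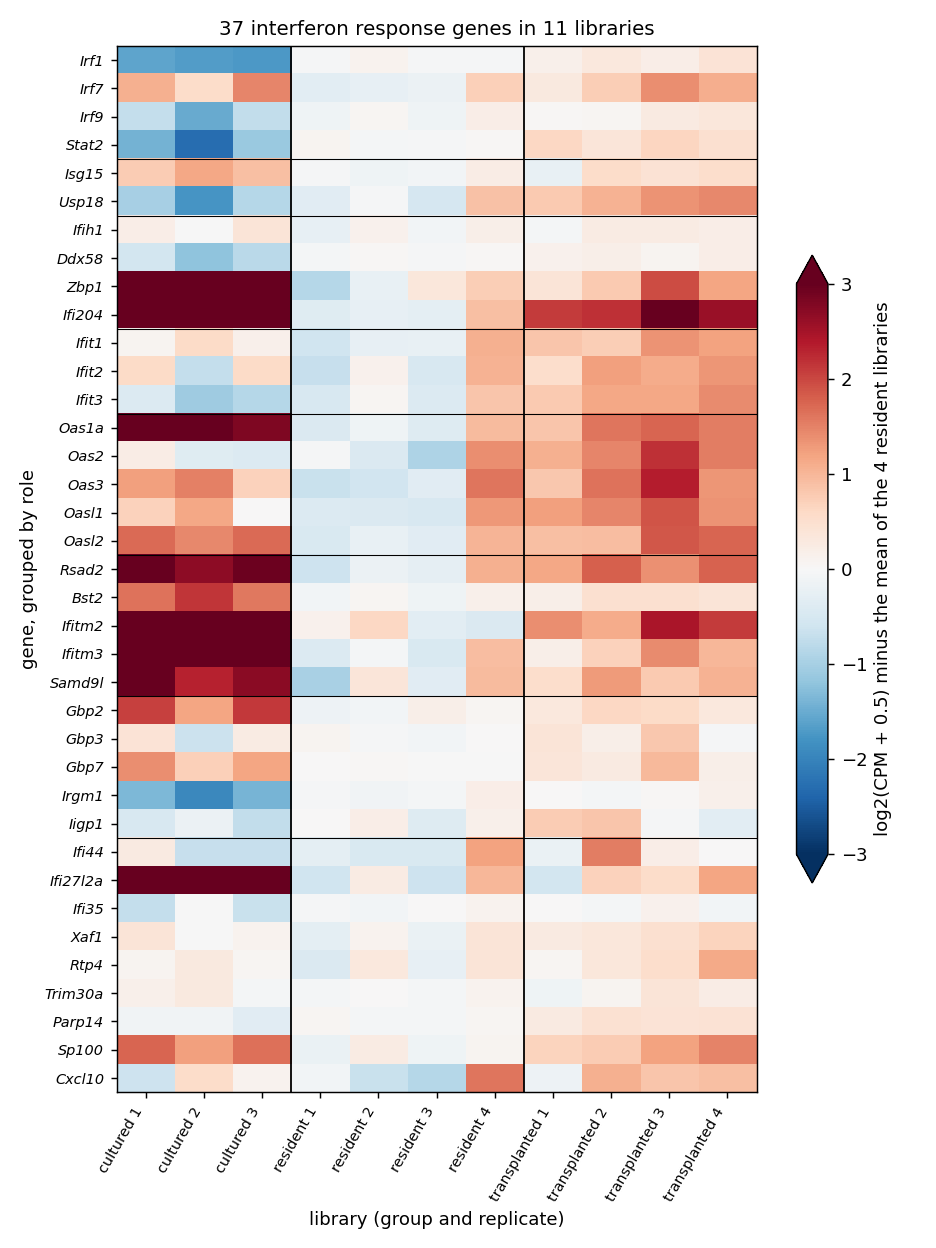
Level of each of the 37 genes (vertical axis, grouped by role) in each of the 11 libraries (horizontal axis), as log2(CPM + 0.5) minus the mean of the 4 resident libraries. Red is above and blue below that mean, and the scale ends at 3 in either direction. Resident replicate 4 is the highest resident library at 28 genes, and Ifitm2, Ifitm3 and Ifi27l2a are far higher in the 3 cultured libraries.

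Levels within the module spanned a wide range. In resident cells the mean TPM ran from 0.417 for Ifi44, 0.537 for Oas3 and 1.04 for Iigp1 up to 91.8 ± 7.61 for Irgm1, 114 ± 5.92 for Irf1 and 209 ± 16.9 for Bst2 (SD, n = 4). Bst2 encodes tetherin, which holds budding virus at the cell surface. Transplanted cells had the same 3 genes at the top, at 95.4 ± 6.90 TPM for Irgm1, 140 ± 11.2 for Irf1 and 282 ± 28.0 for Bst2 (SD, n = 4). Irgm1 and Irf9, at 95.0 ± 11.4 TPM there, did not differ beyond their spread. In cultured cells Ifitm3 and Ifitm2 led at 1317 ± 154 and 1240 ± 90.4 TPM, a difference within their spread, followed by Ifi27l2a at 666 ± 160 and Bst2 at 344 ± 58.8 (SD, n = 3).

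Transplanted cells carried higher levels of part of the module than resident cells. Of 36 members that passed the filter on low counts, 13 were called higher (36.1%), where 7.17% of the 11929 genes tested were called higher. None was lower by edgeR's quasi-likelihood test, where 5.86% of all genes were, and there were also 0 at an unadjusted p under 0.05 and 0 by DESeq2. The other 23 did not pass, and the interferon-induced gene Ifi44 was under the filter. The median log2 fold change of the 36 members was 0.55, against 0.02 over all genes. Since the members were chosen with earlier results of these data known, these shares describe the list and do not test it. In 11 of the 36 members (30.6%) every transplanted library lay above every resident library, against 10.2% of all genes, and 9 of those 11 were among the called ones.

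The count depends on single libraries, most of all on resident ones. Without resident replicate 4 there were 21 members higher, where 4.75% of the 12027 genes tested were, with a median of 1.05. Without resident replicate 1, 2 or 3 there were 6, 7 and 6. Calls higher over all genes fell in these fits too, from 855 to 581, 519 and 511. Without transplanted replicate 1, 2, 3 or 4, 37.8%, 30.6%, 25% and 27% of the members tested were higher. Over all genes the calls higher were then 794, 875, 688 and 630. With a spread shared with the cultured libraries there were 8 members, and 507 over all 12590 genes tested. Without the 3 libraries with low Y-linked counts (resident replicate 4 and transplanted replicates 1 and 2), a choice made after seeing the data, there were 24. In that fit 1017 of all 12144 genes tested were higher. Of the 13 called genes, 5 stayed called when any 1 of the 8 libraries was left out: Stat2, Ifi204, Ifitm2, Parp14 and Sp100. Stat2, with Bst2, Gbp2, Irf1 and Usp18, was however not called with the spread shared with the cultured libraries.

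Of the 4 signalling genes, Stat2 and Irf1 rose. Stat2, a subunit of ISGF3, stood at 42.9, 38.5, 39.3 and 41.2 CPM in resident replicates 1 to 4 and at 62.7, 52.2, 63.6 and 56.8 CPM in transplanted replicates 1 to 4. The groups did not overlap, and resident replicate 4 was among the others. The rise was 1.46-fold, a log2 fold change of 0.54 ± 0.08 (adjusted p = 0.00117). Stat2 was not called with the spread shared with the cultured libraries. Irf1, a transcription factor strong in the response to interferon gamma, stood at 101, 110, 100 and 100 CPM against 114, 128, 118 and 137 CPM. These groups too lay apart, by a small margin, at 0.28 ± 0.07 (adjusted p = 0.031). Irf1 was no longer called without resident replicate 1, 3 or 4 or transplanted replicate 2 or 4, and its adjusted p without resident replicate 4 was 0.0987.

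Irf7, which amplifies the production of type I interferon, stood at 7.2, 7.61, 7.94 and 15.3 CPM in resident and 11.2, 15.5, 24.5 and 19.9 CPM in transplanted replicates 1 to 4. Resident replicate 4 lay within the transplanted range and the other 3 resident libraries below it. The log2 fold change of 0.91 ± 0.28 did not pass (adjusted p = 0.0625), and without resident replicate 4 it was 1.22 ± 0.24 (adjusted p = 0.0119). Irf9, the DNA-binding subunit of ISGF3, stood at 77.1, 88.5, 77.7 and 96.4 CPM in resident and 86.9, 87.6, 102 and 108 CPM in transplanted replicates 1 to 4. The groups overlapped, and the value of 0.18 ± 0.10 did not pass (adjusted p = 0.254).

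Of the ubiquitin-like pair, Usp18 rose and Isg15 did not pass. Usp18 removes the modifier ISG15 from proteins and dampens the type I receptor. It stood at 6.16, 7.76, 5.42 and 15.1 CPM in resident and 14.0, 16.9, 20.9 and 22.5 CPM in transplanted replicates 1 to 4, so that only resident replicate 4 reached the transplanted range. The log2 fold change was 1.11 ± 0.29 (adjusted p = 0.0322), and 1.52 ± 0.19 without resident replicate 4 (adjusted p = 0.00136). The call was lost without resident replicate 1, 2 or 3 or transplanted replicate 3 or 4. Isg15 stood at 2.66 to 3.57 CPM in resident libraries and at 2.46, 4.56, 4.19 and 4.50 CPM in transplanted ones (0.40 ± 0.22, adjusted p = 0.27).

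Among the sensors, Ifi204 rose, with the largest log2 fold change of the module when all libraries were used. It belongs to the PYHIN family of DNA-binding proteins, a cluster of close paralogs on chromosome 1. Its levels were 5.61, 6.07, 5.84 and 14.2 CPM in resident and 33.0, 35.1, 61.7 and 46.8 CPM in transplanted replicates 1 to 4. Every transplanted library was above resident replicate 4, which itself stood above the other 3. The rise was 5.57-fold (2.48 ± 0.32, adjusted p = 0.000618), and without resident replicate 4 it was 2.91 ± 0.23, where Oas3 stood higher at 3.11. Zbp1, a sensor of Z-form nucleic acids, did not pass (1.26 ± 0.45, adjusted p = 0.0986), also without that library (1.62 ± 0.48, adjusted p = 0.0698), nor did the RNA sensor genes Ddx58, encoding RIG-I (0.15 ± 0.06, adjusted p = 0.134), and Ifih1, encoding MDA5 (0.16 ± 0.11, adjusted p = 0.361).

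The IFIT and OAS genes were each over 2-fold higher in resident replicate 4 than in the mean of the other resident libraries, from 2.19-fold for Ifit3 to 8.48-fold for Oas3. Promoter stretches of 4 of them, Ifit1, Ifit3, Oas1a and Oas3, are given above. IFIT proteins bind foreign RNA, and oligoadenylate synthetases make the messenger that activates RNase L. Of these 8 genes, Ifit3, Oas1a and Oasl2 were called higher. Ifit3 stood at 10.2, 15, 10.8 and 26.3 CPM in resident and 25.1, 33.2, 32.8 and 39.2 CPM in transplanted replicates 1 to 4 (1.07 ± 0.27, adjusted p = 0.0277). Oas1a stood at 5.84, 7.38, 5.99 and 16.0 CPM against 14.7, 25.7, 28.1 and 24.4 CPM (1.41 ± 0.32, adjusted p = 0.0165). Oasl2 stood at 4.39, 5.19, 4.75 and 13 CPM against 12, 12.2, 23.8 and 21.9 CPM (1.35 ± 0.37, adjusted p = 0.0364). In all 3 genes resident replicates 1 to 3 lay below every transplanted library and resident replicate 4 lay above transplanted replicate 1. Without resident replicate 4 the values were 1.43 ± 0.18 for Ifit3, 1.85 ± 0.22 for Oas1a and 1.86 ± 0.27 for Oasl2. Oas1a lost its call without resident replicate 2 or 3. Ifit3 and Oasl2 lost theirs without resident replicate 1, 2 or 3 or transplanted replicate 3 or 4.

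Without resident replicate 4 the other 5 genes of these families were called too. Oas3 went from 1.61 ± 0.69 (adjusted p = 0.161) to 3.11 ± 0.48 (adjusted p = 0.00385). Oasl1 went from 1.57 ± 0.51 (adjusted p = 0.0707) to 2.57 ± 0.27 (adjusted p = 0.000548). Oas2, Ifit1 and Ifit2 went from 1.48, 0.98 and 0.95 to 2.32, 1.55 and 1.43, with adjusted p of 0.0035, 0.00245 and 0.00632. Oas3 is one of the scarce members, at 0.317, 0.374, 0.523 and 3.43 CPM in resident and 1.77, 3.55, 6.15 and 2.76 CPM in transplanted replicates 1 to 4. In resident replicate 4 it stood within the transplanted range.

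Of the 5 measured restriction factors, 3 rose. Ifitm2, whose protein blocks virus entry at membranes, stood at 2.35, 3.46, 1.57 and 1.42 CPM in resident and 6.32, 5.14, 13.7 and 10.5 CPM in transplanted replicates 1 to 4. Here resident replicate 4 was the lowest of all 8 libraries and the groups did not overlap. The rise was 4.05-fold (2.02 ± 0.36, adjusted p = 0.0047). Its neighbour Ifitm3 behaved otherwise, at 5.61, 7.33, 5.42 and 14.8 CPM in resident and 8.60, 12.5, 21.1 and 15.6 CPM in transplanted replicates 1 to 4. Resident replicate 4 was the high library, and the value of 0.81 ± 0.35 did not pass (adjusted p = 0.161). It was 1.23 ± 0.28 without resident replicate 4 (adjusted p = 0.0242).

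Rsad2, which encodes the antiviral enzyme viperin, stood at 0.906, 1.40, 1.28 and 3.98 CPM in resident and 4.32, 6.92, 5.03 and 6.77 CPM in transplanted replicates 1 to 4. The groups were separate, with resident replicate 4 just under the lowest transplanted library. The rise was 3.05-fold (1.61 ± 0.40, adjusted p = 0.0253), and 4.77-fold without resident replicate 4 (2.25 ± 0.26, adjusted p = 0.000827). Bst2 stood at 53.5, 59.2, 51.9 and 63.7 CPM against 64.3, 80.0, 79.8 and 75.0 CPM (0.40 ± 0.09, adjusted p = 0.0162), and again resident replicate 4 lay just below the transplanted range. Rsad2 lost its call without resident replicate 1, 2 or 3 or transplanted replicate 2 or 4, and Bst2 without resident replicate 1 or 3 or transplanted replicate 3. Samd9l did not pass (0.83 ± 0.38, adjusted p = 0.187), also without resident replicate 4 (1.26 ± 0.34, adjusted p = 0.0514).

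Of the 5 GTPase genes, 1 was called. Gbp2, a guanylate-binding protein that coats intracellular pathogens, stood at 9.92, 10.3, 12.4 and 11.5 CPM in resident and 13.9, 17.3, 16.6 and 13.7 CPM in transplanted replicates 1 to 4 (0.49 ± 0.11, adjusted p = 0.0192). The groups did not overlap, and the call was lost without resident replicate 1 or 2 or transplanted replicate 3. Gbp7 lay apart between the groups as well, at 77.3 to 80.3 CPM in resident and 88.1 to 155 CPM in transplanted libraries, without passing (0.49 ± 0.15, adjusted p = 0.0608). Irgm1 differed least of the GTPases, at 0.03 ± 0.08 (adjusted p = 0.818).

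Of the other 8 members tested, Sp100 and Parp14 rose. Sp100, a component of nuclear bodies, stood at 15.7, 21.3, 16.4 and 19.2 CPM in resident and 28.7, 31.1, 42.3 and 51.2 CPM in transplanted replicates 1 to 4 (1.09 ± 0.18, adjusted p = 0.00313). Parp14, a mono-ADP-ribosyltransferase, stood at 50.9, 46.5, 47.1 and 50.7 CPM against 58.7, 67.0, 64.6 and 66.0 CPM (0.40 ± 0.07, adjusted p = 0.00329). In neither gene did the groups overlap, and resident replicate 4 was not the highest resident library. The chemokine gene Cxcl10 stood at 2.22, 1.31, 1.09 and 8.18 CPM in resident libraries, so that resident replicate 4 was the highest of all 8 sorted libraries, and at 2.09, 5.52, 4.61 and 4.89 CPM in transplanted ones (0.42 ± 0.58, adjusted p = 0.683). Without that library Cxcl10 was called at 1.46 ± 0.38 (adjusted p = 0.0427). So was Xaf1, which binds the apoptosis inhibitor XIAP, at 0.57 ± 0.14 (adjusted p = 0.0366), against 0.44 ± 0.16 with all libraries (adjusted p = 0.0946). Ifi35 differed least of all members, at 0.01 ± 0.07 (adjusted p = 0.939).

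**Figure D2:**
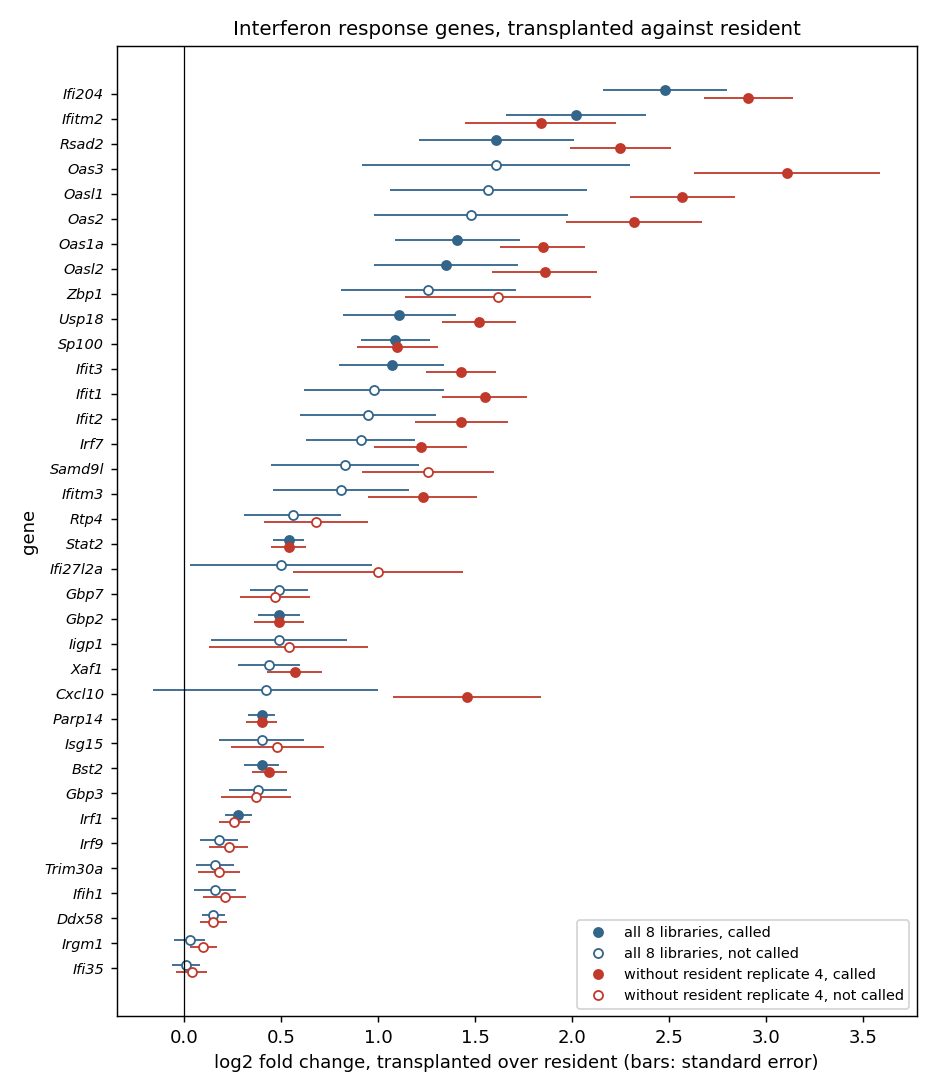
Log2 fold change of transplanted over resident cells (horizontal axis, bars are standard errors) for the 36 genes tested (vertical axis), with all 8 libraries in blue and without resident replicate 4 in red, where filled points are called. All 8 libraries give 13 called genes and leaving out resident replicate 4 gives 21, while Stat2, Parp14 and Sp100 hardly move.

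**Figure D3:**
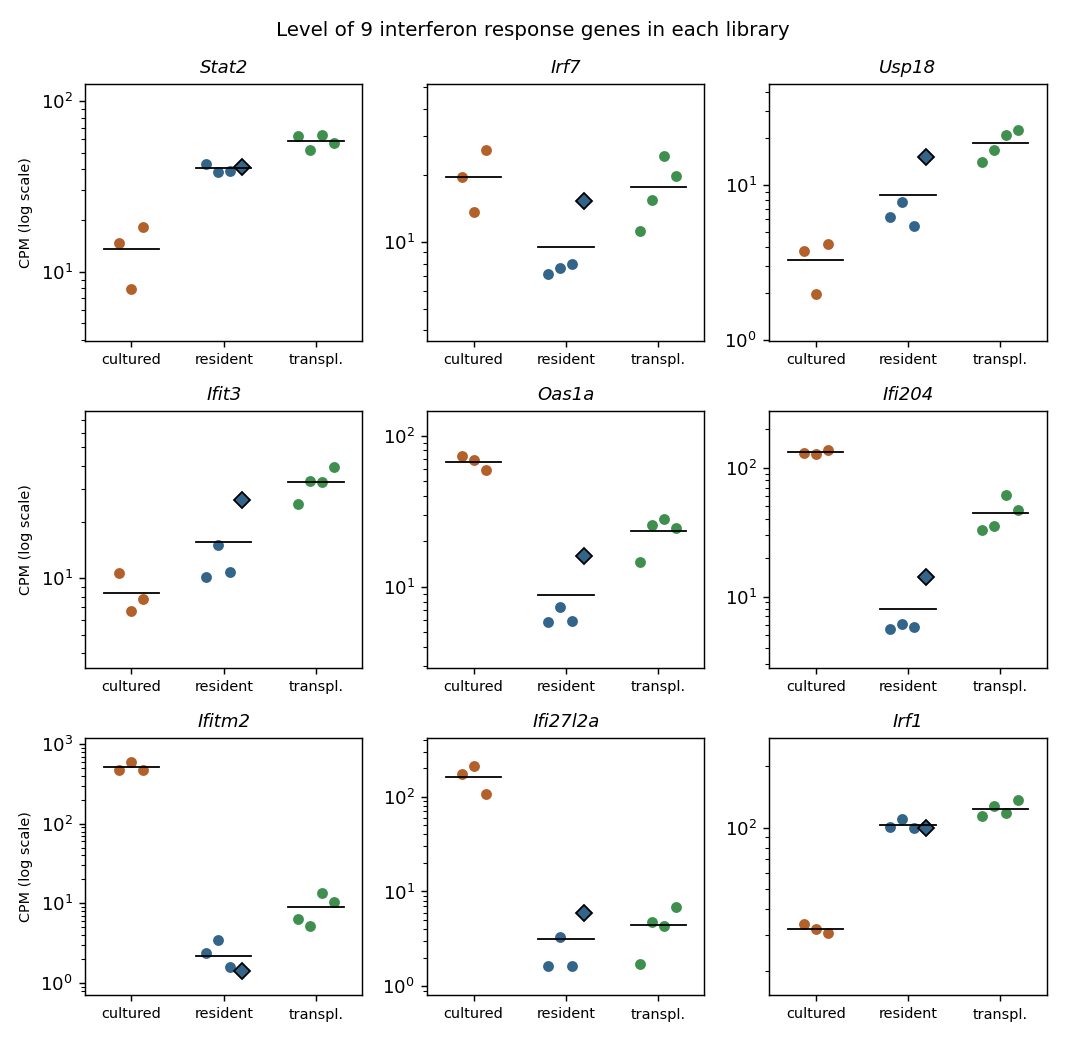
CPM on a log axis of 9 genes in each library of the 3 groups, with group means as lines and resident replicate 4 as a diamond. In Irf7, Usp18, Ifit3 and Oas1a the diamond reaches the transplanted points, and in Stat2, Irf1, Ifitm2 and Ifi204 it lies below them.

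The parts of the pathway around the module were read from lists of genes. Of 12 receptor and JAK-STAT genes tested, 2 were higher in transplanted cells, where 7.17% of all genes were. The other 10 did not pass, and the median of the list was 0.13. Ifnar1 stood at 185, 171, 182 and 176 CPM in resident and 233, 208, 230 and 232 CPM in transplanted replicates 1 to 4 (0.34 ± 0.06, adjusted p = 0.00596). The groups did not overlap. Il10rb, a receptor subunit shared by interferon lambda and interleukins, was at 0.34 ± 0.07 (adjusted p = 0.00763). Ifnar2 (0.20 ± 0.08), Ifngr2 (0.12 ± 0.08) and Ifngr1 (0.02 ± 0.08) did not pass, with adjusted p of 0.133, 0.353 and 0.926.

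Of 25 nucleic acid sensing genes, 1 was higher, the ubiquitin ligase gene Trim25 (0.27 ± 0.07, adjusted p = 0.0226), where 7.17% of all genes were higher. The median was 0.02, that of all genes. Trim25 lost its call without resident replicate 1, 2 or 3 or transplanted replicate 3 or 4. Of 54 further interferon-stimulated genes tested, 16 were higher and 1 lower, beside 7.17% higher and 5.86% lower of all genes. Their median was 0.34. The highest were Ms4a4c, at 1.95 ± 1.15 CPM in resident and 8.86 ± 2.34 CPM in transplanted cells (SD, n = 4 each; 2.18 ± 0.36, adjusted p = 0.00313), and Ifi207 (1.87 ± 0.38, adjusted p = 0.00973) and Ifi211 (1.85 ± 0.42, adjusted p = 0.0168) of the PYHIN cluster that holds Ifi204. Ifi211 lost its call without resident replicate 1 or 2, and stood at 2.46 ± 0.34 without resident replicate 4. The lower gene was Ube2l6, which encodes an enzyme that attaches ISG15, at 20.2, 18.7, 20.6 and 22.9 CPM in resident and 14.0, 15.7, 16.1 and 15.3 CPM in transplanted replicates 1 to 4 (-0.43 ± 0.09, adjusted p = 0.0101).

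Markers of other cell types moved in both directions between these groups. The 9 measured T and NK cell markers summed to at most 2.80 CPM in any library. Only Cd4 of that list was tested, and it was lower, with 100 counts over the resident and 10 over the transplanted libraries. Border-associated macrophage markers summed to 44.0 to 89.3 CPM in resident and 20.8 to 48.5 CPM in transplanted libraries, with 5 of the 6 genes lower and Cd209f at 0 in every transplanted library, while Ms4a7 overlapped (1.76 ± 0.62, adjusted p = 0.0954). B cell markers summed to 17.9 to 26.8 against 0.581 to 0.817 CPM, and monocyte markers to 6.93 to 11 against 2.37 to 3.60 CPM, with Ccr2 lower and Vcan higher. Endothelial markers summed to 47.8 to 65.4 against 27.3 to 32.1 CPM, with Pecam1 lower but the other 3 genes tested, Flt1, Cdh5 and Kdr, higher. The neutrophil list summed to 736 to 829 against 946 to 1159 CPM, with the rise in the 1 of its 4 genes that was tested, Csf3r. The part of these cells in the interferon values was not tested.

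Cultured and resident cells differed in a different pattern, with members far apart in both directions. Of 36 members tested, 15 were higher in cultured cells (41.7%) and 7 lower (19.4%), where 37.9% of 12406 genes were higher and 37.2% lower. With TMM scaling the share of higher members was near that of all genes, and the share of lower members was under it. The median log2 fold change was 0.21, against -0.02 over all genes. The scale matters here. On TPM, where the median of all genes shifts by -1.05, 11 of 34 members tested were higher (32.4%) and 14 lower. Of all 11191 genes tested there, 1941 were higher and 7625 lower. Higher genes were 20.3% of all calls, against 50.5% with TMM scaling. Directions below are relative to the TMM-scaled counts, and Isg15 turned from 1.09 to -0.03 on TPM while Oasl2, Gbp7 and Irf7 were no longer called.

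All 5 measured restriction factors were higher in cultured cells, and on TPM also. Ifitm2 stood at 481, 599 and 472 CPM in cultured replicates 1 to 3, against the 1.42 to 3.46 CPM of resident libraries, a 241-fold difference (7.91 ± 0.31, adjusted p = 4.84e-08). Ifitm3 stood at 500, 675 and 499 CPM against 5.42 to 14.8 CPM, a 69.0-fold difference (6.11 ± 0.38, adjusted p = 7.45e-07). No cultured library came near any resident one in either gene. Rsad2 (3.09 ± 0.44), Samd9l (2.73 ± 0.43) and Bst2 (1.85 ± 0.16) followed, with adjusted p of 0.000163, 0.000338 and 5.1e-06. Rsad2 stood at 3.73 ± 0.26 without resident replicate 4.

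Outside that class the highest were Ifi27l2a, Ifi204 and Zbp1. Ifi27l2a, an interferon-induced gene whose product is found at mitochondria, stood at 172, 209 and 107 CPM in cultured replicates 1 to 3 and 1.63, 3.32, 1.62 and 5.94 CPM in resident replicates 1 to 4 (5.74 ± 0.45, adjusted p = 3.55e-06). Ifi204 stood at 131, 128 and 138 CPM in cultured libraries (4.10 ± 0.32, adjusted p = 3.22e-06). Zbp1 stood at 23.8, 23.3 and 19.1 CPM in cultured and 0.770, 1.45, 2.38 and 3.29 CPM in resident libraries (3.52 ± 0.38, adjusted p = 2.83e-05). In each of these genes the groups were widely separate, also from resident replicate 4. Oas1a was the highest of the OAS genes at 2.97 ± 0.33 (adjusted p = 3.37e-05).

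The signalling genes went the other way, apart from Irf7. Irf1 stood at 33.8, 31.9 and 30.6 CPM in cultured libraries, under every resident library (-1.64 ± 0.10, adjusted p = 5.8e-07). Stat2 stood at 14.7, 7.89 and 18.4 CPM (-1.53 ± 0.25, adjusted p = 0.00037) and Irf9 at 51.3, 29.1 and 50.3 CPM (-0.93 ± 0.20, adjusted p = 0.00211). Both of these ISGF3 subunit genes lay wholly below the resident libraries. Irf7 was higher, at 19.6, 13.6 and 25.9 CPM, and overlapped with resident replicate 4 (1.09 ± 0.31, adjusted p = 0.0106). Irf7 lost its call without cultured replicate 3 and on TPM.

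The other lower members were Irgm1, Usp18, Ddx58 and Ifit3. Irgm1, a GTPase of the autophagy pathway, stood at 32.4, 21.4 and 31.5 CPM in cultured and 81.5, 77.5, 79.6 and 96.2 CPM in resident libraries (-1.52 ± 0.16, adjusted p = 2.73e-05). Usp18 stood at 3.72, 1.98 and 4.14 CPM, below every resident library (-1.35 ± 0.41, adjusted p = 0.0144), and Ddx58 was at -0.80 ± 0.15 (adjusted p = 0.00111). Ifit3 overlapped between the groups (-0.86 ± 0.35, adjusted p = 0.0475) and was no longer called without cultured replicate 2 or 3 or resident replicate 2 or 4. Without resident replicate 4 its value was -0.50, and Oas3 (2.59 ± 0.45, adjusted p = 0.00106) and Oasl1 (1.63 ± 0.47, adjusted p = 0.0137) were called higher.

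**Figure D4:**
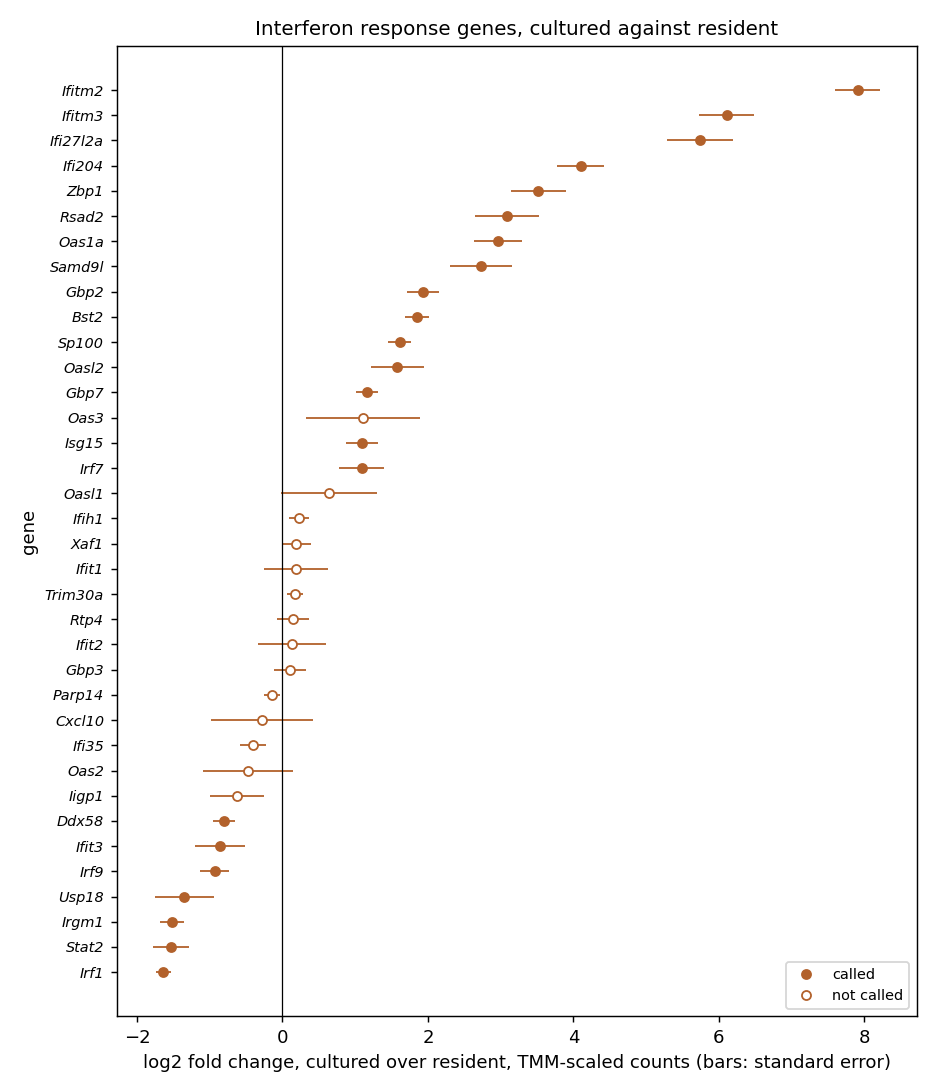
Log2 fold change of cultured over resident cells from TMM-scaled counts (horizontal axis, bars are standard errors) for the 36 genes tested (vertical axis), where filled points are called. Ifitm2, Ifitm3 and Ifi27l2a lie above 5 and Irf1, Stat2 and Irgm1 at -1.64, -1.53 and -1.52, and on TPM Isg15 turns from 1.09 to -0.03.

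Around the module, 3 of 12 receptor and JAK-STAT genes tested were higher in cultured cells and 4 lower, beside 37.9% higher and 37.2% lower of all genes. The median log2 fold change of the list was -0.04, against -0.02 for all genes. Ifngr1 fell to 428 ± 71.9 CPM (SD, n = 3) from 1392 ± 89.5 CPM (SD, n = 4), at -1.67 ± 0.14 (adjusted p = 5.04e-06). Il10rb stood at -1.02 ± 0.13, Ifnar2 at -0.42 ± 0.09 and Ifngr2 at -0.24 ± 0.10, with adjusted p of 7.6e-05, 0.00222 and 0.0494. Ifngr2 lost its call without cultured replicate 1 or resident replicate 1, 2 or 4. Ifnar1 was higher at 0.49 ± 0.18 (adjusted p = 0.0298), but at -0.63 on TPM, and it was not called without cultured replicate 1 or 3 or any 1 of the 4 resident libraries. The feedback genes Socs3 (1.95 ± 0.58, adjusted p = 0.0127) and Ptpn2 (1.04 ± 0.09, adjusted p = 6.41e-06) were higher. Socs3 encodes an inhibitor of JAK kinases and Ptpn2 a phosphatase that acts on them. Resident replicate 1 stood apart in Socs3, at 177 CPM against 34.9, 38.7 and 32.6 CPM in replicates 2 to 4, and without it the value was 2.93 ± 0.16.

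Of 25 nucleic acid sensing genes, culture had 10 higher and 13 lower, beside 37.9% higher and 37.2% lower of all genes. The kinase gene Ikbke stood at 165, 109 and 171 CPM in cultured libraries and at 0.181 to 0.713 CPM in resident ones (8.70 ± 0.34, adjusted p = 4.58e-08). Trim25 (2.98 ± 0.10, adjusted p = 2.44e-08) and Samhd1, which depletes the nucleotides that viruses need (2.31 ± 0.09, adjusted p = 5.32e-08), were also higher. Tlr3, a sensor of double-stranded RNA in endosomes (-3.36 ± 0.26, adjusted p = 3.05e-06), Sting1, the adaptor of cytosolic DNA sensing (-3.18 ± 0.12, adjusted p = 3.39e-08), and Tlr9, a sensor of unmethylated DNA (-2.26 ± 0.33, adjusted p = 0.000198), were lower.

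Of 57 further interferon-stimulated genes tested, 32 were higher and 13 lower, beside 37.9% higher and 37.2% lower of all genes. Ifitm6 had 4081 counts over the 3 cultured and 2 over the 4 resident libraries. Ifi205 stood at 6.41 ± 0.59 (adjusted p = 9.81e-06), and at 7.17 ± 0.69 without resident replicate 4, and Gbp8 at 5.83 ± 0.16 (adjusted p = 7.99e-09). Lower were the GTPase genes Irgm2 (-4.29 ± 0.30, adjusted p = 1.66e-06) and Igtp (-2.02 ± 0.12, adjusted p = 5.28e-07), relatives of Irgm1, and the deaminase gene Apobec3 (-1.95 ± 0.18, adjusted p = 1.02e-05). Markers of other myeloid cells moved in both directions between these groups. Border-associated macrophage markers summed to 1850 to 2591 CPM in cultured libraries, with 3 of the 6 genes higher (Pf4, Mrc1 and Ms4a7) and 3 lower (Cd163, Lyve1 and Cd209f, the last at 0 in every cultured library). Monocyte markers summed to 93.5 to 111 CPM in cultured and 6.93 to 11 CPM in resident libraries. Of the 4 monocyte genes tested 3 were higher and 1 lower, Plac8, with 2 counts over the cultured and 43 over the resident libraries. The part of such cells in the interferon values was not tested.

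Transplanted and cultured cells were compared last, with libraries that the comparisons above also used. Of 36 members tested, 12 were higher in transplanted cells (33.3%) and 11 lower (30.6%), where 36.9% of 12284 genes were higher and 35.5% lower. The median was 0.28, against 0.05 over all genes. On TPM, where the median of all genes shifts by 1.04, 22 of 35 members tested were higher (62.9%) and 6 lower. Of all 11142 genes tested there, 7560 were higher and 1800 lower. Against 51.0% with TMM scaling, higher genes were 80.8% of all calls on TPM. On that scale Gbp7 turned from -0.66 to 0.42 and Irf7 from -0.16 to 0.89, and Bst2, Gbp2, Oas1a and Rsad2 were no longer called lower, nor was Ifi204 when the filter on low values was dropped too.

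The higher members were led by Usp18, which stood at 14.0 to 22.5 CPM in transplanted and 1.98 to 4.14 CPM in cultured libraries (2.48 ± 0.29, adjusted p = 3.72e-05). Stat2 (2.10 ± 0.25, adjusted p = 4.45e-05), Irf1 (1.94 ± 0.12, adjusted p = 5.34e-07) and Irf9 (1.13 ± 0.20, adjusted p = 0.000572) were higher as well, each without overlap. Oas2 stood at 5.51, 7.40, 12.6 and 7.84 CPM in transplanted and 2.86, 1.74 and 1.66 CPM in cultured libraries (1.98 ± 0.35, adjusted p = 0.000606). Ifit3 stood at 10.7, 6.68 and 7.80 CPM in cultured libraries, all below the transplanted ones (1.94 ± 0.22, adjusted p = 2.6e-05). All 3 IFIT genes were higher, but Ifit1 (0.82 ± 0.26, adjusted p = 0.0174) lost its call without cultured replicate 1 or 3 or transplanted replicate 3, and Ifit2 (0.84 ± 0.32, adjusted p = 0.0384) without cultured replicate 2 or transplanted replicate 2, 3 or 4. Oasl1 (0.95 ± 0.38, adjusted p = 0.0459) was still called only without cultured replicate 2.

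All 5 restriction factors were lower in transplanted than in cultured cells, of which Rsad2 and Bst2 were not called on TPM. Ifitm2 was 58.7-fold lower (-5.88 ± 0.33, adjusted p = 2.39e-07), Ifitm3 39.0-fold lower (-5.29 ± 0.29, adjusted p = 2.2e-07) and Ifi27l2a, outside that class, 37.5-fold lower (-5.23 ± 0.40, adjusted p = 1.74e-06). Transplanted Ifi27l2a levels were 1.73, 4.71, 4.29 and 6.87 CPM, overlapping with the resident libraries. Zbp1, at 2.5, 3.41, 8.29 and 4.69 CPM in transplanted libraries, was at -2.24 ± 0.35 (adjusted p = 0.000259). Samd9l stood at 34.3, 20.1 and 26.6 CPM in cultured and 5.51, 9.51, 6.66 and 7.98 CPM in transplanted libraries (-1.88 ± 0.24, adjusted p = 6.09e-05). In each of these 5 genes every transplanted library lay below every cultured one. Gbp7, at -0.66 ± 0.22 (adjusted p = 0.0211), was no longer called without cultured replicate 1 or 3 or transplanted replicate 1 or 4.

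Set side by side, some members stood between the other groups in transplanted cells and some did not. On CPM, Ifi204 was at 7.94 in resident, 44.2 in transplanted and 133 in cultured cells, and its transplanted libraries overlapped with neither. On TPM its transplanted libraries, at 34.1 to 64.8, overlapped with the cultured ones, at 59.0 to 70.3. Ifitm2 was likewise in between, at 2.20, 8.90 and 518 CPM. Stat2 was highest in transplanted cells, at 40.5, 58.8 and 13.6 CPM in the same order, as were Parp14 at 48.8, 64.1 and 43.1 CPM and Irf1 at 103, 124 and 32.1 CPM, each with no overlap between transplanted libraries and the others.

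Of 12 receptor and JAK-STAT genes, 4 were higher and 2 lower in transplanted than in cultured cells. Beside this list and those that follow, 36.9% of all genes were higher and 35.5% lower. Ifngr1 (1.70 ± 0.15), Il10rb (1.38 ± 0.14), Ifnar2 (0.64 ± 0.12) and Ifngr2 (0.38 ± 0.11) were the higher ones, with adjusted p of 5.19e-06, 1.05e-05, 0.000829 and 0.012. Socs3 (-2.57 ± 0.35, adjusted p = 9.67e-05) and Ptpn2 (-0.82 ± 0.10, adjusted p = 4.99e-05) were the lower ones. Ifnar1 did not pass at -0.13 ± 0.18 (adjusted p = 0.54) and stood at 0.99 on TPM. Of 25 sensing genes, 12 were higher and 9 lower, led by Tlr3 (3.68 ± 0.26), Sting1 (3.44 ± 0.13) and Tlr9 (2.29 ± 0.34) upward and Ikbke (-7.89 ± 0.31), Trim25 (-2.69 ± 0.12) and Rnaseh2b (-2.42 ± 0.16) downward. Of 57 further interferon-stimulated genes, 17 were higher and 26 lower. Irgm2 (4.38 ± 0.30), Apobec3 (2.44 ± 0.23) and Tgtp1 (2.40 ± 0.93) led the higher ones, and Ifi205 (-5.74 ± 0.56) and Slfn1 (-4.91 ± 0.62) the lower ones after Ifitm6, which had 2 counts over the 4 transplanted libraries. Tgtp1 had 8 counts over the cultured libraries, all in replicate 1, and lost its call without cultured replicate 2 or 3 or transplanted replicate 2, 3 or 4. Slfn1 stood at -5.63 without transplanted replicate 3.

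Many members belong to families of close copies, among them the IFIT, OAS, IFITM, guanylate-binding and PYHIN genes and Iigp1. How reads shared between such copies were assigned was not given in the sources used here, so the split of a level between neighbours such as Ifitm2 and Ifitm3, or Ifi204 and Ifi207, is uncertain. Whether the counting used strand is not given either.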

How the data were processed

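RNA was measured in 3 cultured, 4 resident and 4 transplanted microglia libraries, made with a Smart-Seq protocol from 1 ng of total RNA, per the labels' protocols. Expected counts per gene were estimated by the authors and deposited unscaled, per the file headers. The deposited TPM values had been scaled by the authors for length and library. HISAT, Bowtie2 and GRCm38.p6 were used, per the submitters' processing notes. Versions, read counter and annotation were not given in the sources used here. Deposited FPKM values (11 columns) stayed unused.

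Symbols came from a RefSeq table of that build, which matched 16845 of 16894 identifiers. Counts were rounded, and edgeR 4.0.16 (R 4.3.3) fitted the libraries of 2 groups at a time, with TMM scaling, its expression filter and the quasi-likelihood test. Calls were made at p under 0.05 after Benjamini-Hochberg adjustment across the genes in each fit, and every adjusted p is from this test unless another tool is named. Errors of log2 fold changes are standard errors. Alternatives were DESeq2 1.42.0, limma 3.58.1 on log2(TPM + 1) or log2(TPM + 0.1) for genes above 1 TPM, other scalings and filters, a replicate block, a fit over all groups, and each library left out. The fits were tested on simulated data. No pair of libraries was a duplicate by a chi-square test of counts. Totals of 18692721 to 28219696 counts limit precision, and 3 counts, the limit that a count of 0 allows, cover counting error only.

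The members and gene lists were chosen with earlier results of these data known. Any member could be named. Values in every library were required, per comparison, for the 5 highest and 5 lowest called members and the 4 signalling members, and names for the 3 highest and 3 lowest called genes of each list, and the interferon receptors. A gene of the receptor and JAK-STAT list is not reported here.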

Additional observations from a re-analysis of the deposited data

Results flagged for a closer look

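Within the groups of 4 libraries, a library was marked where its log2 level lay apart from the other 3 by more of the whole range than Dixon's critical ratio allows. Of 74 groups examined (37 genes in resident and in transplanted cells) 9 were marked, and chance marks about 5% of groups. Genes of 1 pathway are not independent.

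In 6 of the 9, resident replicate 4 was the high library. Irf7 stood at 15.3 CPM there, against 7.2 to 7.94 in the other 3. Ifi204 stood at 14.2 CPM against 5.61 to 6.07, Oas3 at 3.43 CPM against 0.317 to 0.523, and Oasl1 at 3.34 CPM against 0.618 to 0.679. Oasl2 stood at 13 CPM against 4.39 to 5.19, and Ifi44 at 1.55 CPM against 0.140 to 0.226. In 2 more, transplanted replicate 1 was the low library, with Isg15 at 2.46 CPM against 4.19 to 4.56 and Ifih1 at 27.9 CPM against 33.2 to 34.2. Irf1 was highest in resident replicate 2, at 110 CPM against 100 to 101.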

How the results depend on the processing

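For transplanted against resident cells, the members called higher (13) became 8 with 1 fit over all 3 groups and 24 without the 3 libraries with low Y-linked counts, chosen after seeing the data. Over all genes the calls higher (855) became 507 and 1017 in these 2 settings. Leaving out 1 library gave 6 to 21, and 0 lower throughout, beside 511 to 875 higher and 509 to 878 lower over all genes. Replicate numbers are shared across groups, but deviations of same-numbered libraries correlated at only -0.0703 to 0.053 and not every library correlated best with its own number. The numbers were therefore not taken as a pairing. With the replicate block the count of members was 20, beside 707 over all genes. For cultured against resident cells the members lower (7) became 14, 14 and 15 on log2(TPM + 1), log2(TPM + 0.1) and log2(TPM + 1) without the filter. Over all genes the calls lower (4612) became 7625, 7609 and 8691. For transplanted against cultured cells the members higher (12) became 22, 22 and 23, and those lower (11) became 6, 6 and 5. Over all genes the calls higher (4530) became 7560, 7538 and 8576, and those lower (4361) became 1800, 1786 and 2159. Left-out libraries gave 14 to 17 higher and 6 to 7 lower for cultured against resident, and 10 to 13 and 10 to 12 for transplanted against cultured. Over all genes the calls were 4355 to 4911 higher and 4308 to 5151 lower for cultured against resident. For transplanted against cultured they were 4195 to 4863 higher and 4103 to 4579 lower.

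Signs turned on TPM, in the same order of settings. Cultured against resident gave Ifnar1 -0.63, -0.65 and -0.63 and Isg15 -0.03 each time. Transplanted against cultured gave Gbp7 0.42, 0.43 and 0.42, Ifnar1 0.99, 1.01 and 0.99, and Irf7 0.89, 0.94 and 0.89. Irf7 was at 0.09 without cultured replicate 3, 0.01 without transplanted replicate 1 and 0.14 without the low Y-linked libraries. Ifngr1, transplanted against resident, was at -0.04 and -0.00 without resident replicates 1 and 3, -0.00 and -0.06 without transplanted replicates 1 and 2, and -0.10 without the low Y-linked libraries. Over the left-out libraries Ifngr1 ran from -0.06 to 0.05 and Irf7 from -0.36 to 0.09. Why these values moved was not tested. Ifi44, at 1 to 43 counts per library, was under the filter in all 3 comparisons.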

Other observations

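Cxcl9, a chemokine gene that answers to interferon gamma, was too scarce to be tested and had 44 counts in resident replicate 4, against 7, 4 and 0 in resident replicates 1 to 3, 2, 20, 6 and 8 in transplanted replicates 1 to 4, and 6, 0 and 0 in cultured replicates 1 to 3. Ifi44 had 34 counts in resident replicate 4 and 43 in transplanted replicate 2, and at most 12 in any other library. The interferon ligand Ifnz had 5, 5, 2 and 3 counts in resident replicates 1 to 4, 1 in transplanted replicate 1 and 0 in the other 6 libraries. Cxcl9, Ifi44 and Ifnz were all left out of the tests by the filter on low counts.

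Nlrc5, which switches on genes of antigen presentation by MHC class I, rose with the further interferon-stimulated genes in transplanted cells and was picked after its values were seen. It stood at 7.97, 10.2, 7.36 and 10.8 CPM in resident and 18.4, 21.9, 36.9 and 31.2 CPM in transplanted replicates 1 to 4, without overlap (1.58 ± 0.22, adjusted p = 0.00106). Resident replicate 4 lay close to replicate 2 in this gene. Ifi209, another PYHIN gene picked in the same way, stood at 6.38, 6.59, 7.27 and 12.8 CPM against 25.9, 26.9, 25.9 and 22.4 CPM (1.62 ± 0.20, adjusted p = 0.000535).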
